A study of Oryctolagus cuniculus with 12 samples.

Results

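The 6 inflammatory mediators IL6, CXCL8, CCL2, IL18, IL1RN and IL10 were followed in the rabbit basilar artery after experimental subarachnoid hemorrhage, in which blood enters the cerebrospinal fluid beneath the arachnoid membrane. They are 6 of the 10281 genes that could be named on the array. Their probes were found through the gene names, accessions and descriptions printed on the array, which gave 27 probes of the 43623 that are not controls. A probe was tested if some group had all 3 of its spots well above background, which held for 22 of the 27; 4 of 5 IL6 probes and 1 of 3 IL1RN probes did not pass. The basilar artery supplies the brain stem, on whose surface it lies, and the series measured its total RNA on 12 single-colour (Cy3) arrays. The arrays fall into 4 groups of 3, the controls (called normal in the labels and day 0 in the series) and arteries taken on day 3, day 5 and day 7 after the hemorrhage. The labels give no strain, sex or age, no method of bleeding and no sham operation, and nothing in them says whether samples of 1 group came from separate animals, so a p-value here speaks of the spread among these samples, and that spread may be technical.

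IL6 is a cytokine that signals through a receptor pair and the transcription factors of the STAT family. CXCL8 (interleukin-8) and CCL2 (MCP-1) are chemokines, the first known for drawing neutrophils and the second for drawing monocytes. IL18 is a cytokine of the IL-1 family that is released after cleavage by caspase-1. IL1RN occupies the IL-1 receptor without signalling, and IL10 restrains the output of activated macrophages, so both act against inflammation.

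The tissue label was checked against cell type markers. All 10 smooth muscle markers on the array and 6 of 8 endothelial markers were tested, that is, well above background in at least 1 group. Of 5 neural and glial markers on the array, SYT1 and S100B passed that filter and 3 did not, GFAP and AQP4 among them. Each array's 75th percentile of the signal was 127 to 191 units, no spot was saturated, and the number of arrays limits the precision. Control replicate 2 stood apart, with 50.1% of its spots well above background, where the other 11 arrays had 58.2% to 64.0%, and with 169 outlier spots, where the others had 1 to 16. A replicate number is a slide, so all 4 groups are on every one of the 3 slides, each group at the same position on each, and position and group cannot be told apart.

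The probes that carry the results are shown here, 5′ to 3′, because several of the findings differ between probes of 1 gene. For IL6, CCL2 and the measured IL1RN probe the first 30 bases are given, and for the others all 60 bases. Capitals mark the 10 bases that end one CXCL8 probe and begin another.
IL6 probe A_04_P003353: agccaaatcttttcttggaatgtgtaggct
CXCL8 probe A_04_P004968: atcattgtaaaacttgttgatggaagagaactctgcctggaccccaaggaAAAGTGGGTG
CXCL8 probe A_04_P004967: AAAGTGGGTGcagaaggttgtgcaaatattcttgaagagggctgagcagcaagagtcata
CCL2 probe A_04_P001372: tgggcatatgtgctttccctctgtgaaccc
IL18 probe A_04_P037633: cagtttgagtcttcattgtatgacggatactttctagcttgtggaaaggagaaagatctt
IL1RN probe A_04_P003387: gatatgcgttgtgtggtttgggtgaaaagt
IL1RN probe A_04_P093907: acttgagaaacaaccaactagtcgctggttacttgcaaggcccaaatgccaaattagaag
IL10 probe A_04_P000856: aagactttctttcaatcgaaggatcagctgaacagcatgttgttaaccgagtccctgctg

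Probes of 1 gene were often near copies of each other, so they are not independent measurements. The 5 IL6 probes all overlapped, by up to 59 of 60 bases, and the 7 IL18 probes held 5 distinct sequences. No other probe of the array, of 43596, shared a run of 20 bases with any of the 27. The 3 IL1RN probes are described on the array as an interleukin-1 receptor, and they are called IL1RN here because the RefSeq gene table gives that name to their accession. Genome positions are left out, since the array states no build.

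Levels are log2 values with the 75th percentile of their array subtracted, so that 0 is the level of that percentile, and levels of different probes are not compared with each other. Where several probes of a gene were tested, the one with the highest mean over the 12 arrays stands for the gene. Changes are the day's mean minus the control mean on the log2 scale, from limma over all 12 arrays, and called means an adjusted p below 0.05 (Benjamini-Hochberg, over 26434 probes). The 3 days were compared with the same 3 control arrays, so their changes are not separate evidence.

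On day 3 all 6 genes were called higher than control, with log2 changes between 1.12 and 3.59 and a median of 2.18, against a median of -0.01 over all 7349 named genes tested. Of those 7349 genes, 4.84% were called higher on day 3. IL6 and IL10 passed the filter on dim probes through their day 3 arrays alone and so had to be higher there, which is why the count of 6 and the median are given as a description. On day 5 and on day 7 IL1RN was the single gene called, and the changes of the other 5 were positive without passing the test. The shares of all genes called higher were 1.92% on day 5 and 1.96% on day 7. In this whole tissue, more cells of a type and more RNA per cell cannot be told apart.

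**Figure D1:**
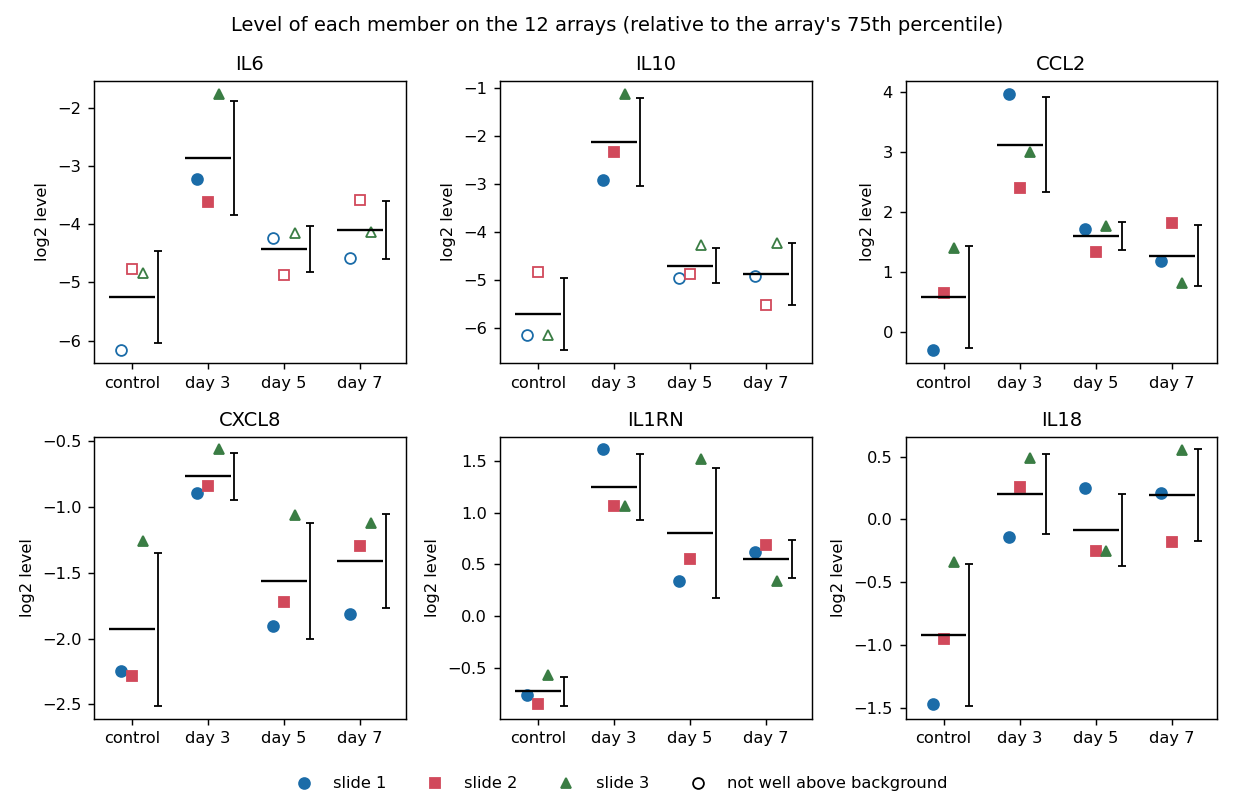
Log2 level (vertical axis, relative to the array's 75th percentile) of the probe chosen for each gene on the 12 arrays, by group (horizontal axis). Symbols mark the slide, open symbols are spots not well above background, lines are group means and bars their SD (n = 3). IL6 and IL10 have filled symbols on day 3 only, and for all 6 genes the day 3 arrays lie above the control arrays.

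The tested IL6 probe was well above background on all 3 day 3 arrays and on 0 arrays of the other groups. It stood at -6.17, -4.77 and -4.83 in controls, at -3.22, -3.62 and -1.76 on day 3, at -4.24, -4.87 and -4.15 on day 5 and at -4.57, -3.58 and -4.13 on day 7. The day 3 arrays lay above all control arrays without overlap, and 1 day 7 array that was not above background lay above the lowest day 3 array. IL6 rose by 2.39 on day 3 (SE 0.50, limma adjusted p = 0.0169), with means of -2.87 ± 0.98 on day 3 and -5.25 ± 0.79 in controls (SD, n = 3 each). This probe was tested through its day 3 arrays alone, so the p and the lack of overlap with controls are conditioned on the rise. They are not set against a share of all probes. Since the control values are not measured levels, the fold is a bound, at least 1.61-fold higher on day 3. Such a bound, here and for other genes, takes the brighter group's mean over a floor for the dimmer one; the floor on an array is its lowest signal among probes well above background, or the probe's own signal where that is higher, and is averaged over the 3 arrays.

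The other 4 IL6 probes were above background on 2 of the 3 day 3 arrays each, and the array that missed was day 3 replicate 2 every time. Of the 15 IL6 spots in each group, those above background numbered 0 in controls, 11 on day 3, 1 on day 5 and 4 on day 7. The IL6 call rested on single arrays: it was lost without control replicate 1 (log2 change 1.93, adjusted p = 0.0584) and without day 3 replicate 3 (1.83, adjusted p = 0.0535). Day 5 and day 7 changes of 0.83 and 1.16 had limma adjusted p-values of 0.497 and 0.251.

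The signal transducer IL6ST (gp130), which IL6 shares with related cytokines, rose on day 3 by 0.71 (SE 0.16, limma adjusted p = 0.0225) and on day 5 by 0.77 (adjusted p = 0.0325). Its levels were 3.01, 2.83 and 3.20 on day 3, against 2.17, 2.38 and 2.34 in controls, with no overlap. OSMR, the receptor subunit for oncostatin M, another cytokine that uses gp130, rose by 0.68 on day 3 (adjusted p = 0.0197). The day 3 calls of IL6ST and OSMR were lost without control replicate 1, day 3 replicate 1 or day 3 replicate 3, with adjusted p-values of up to 0.0948 and 0.0727. The day 5 call of IL6ST was lost in 7 of 12 fits that left out 1 array (control replicates 1 and 2, day 3 replicate 1, day 5 replicates 1 and 2, day 7 replicates 1 and 2; adjusted p up to 0.120). That day 5 call was also lost with normexp (0.49, limma adjusted p = 0.174) and with the authors' values. Without the filter on dim probes, or with only the 2 groups compared, none of these calls of IL6ST and OSMR remained. The ligand-binding receptor IL6R had a change of -0.20 on day 3 (limma adjusted p = 0.634, levels in the 2 groups overlapping). In all, 3 of 10 tested genes of the IL-6 family and its signalling were called higher on day 3 and 0 lower. The shares of all genes were 4.84% and 2.04%.

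The size of the CXCL8 change depended on the probe. All 7 of its probes were tested and 6 were called higher on day 3, as were 4.71% of all probes. Of these 6, A_04_P000627 passed the filter on dim probes through its day 3 arrays alone. Its call and its bound (6.94-fold) are conditioned on the rise, and the call is not set against that share. A_04_P000626, A_04_P004966 and A_04_P004967 passed through days after the hemorrhage and not through controls. Their calls against control are conditioned in part and are not set against that share either. The 4 probes that list 1 Ensembl transcript rose by 3.43 to 4.44 on the fitted log2 scale. For 3 of these 4, no control array was above background, and as bounds they were at least 5.75-, 5.79- and 6.94-fold higher; the fourth, A_04_P000626, was above background on 1 of 3 control arrays. The other 3 probes, which overlap and list 2 Ensembl transcripts, had changes of 1.16 to 1.38, or 2.24- to 2.61-fold, 2 of the 3 called. Of the 4 probes of the larger response, A_04_P004966 and A_04_P004967 overlapped by 59 bases. A_04_P000626 and A_04_P000627 overlapped neither those nor each other.

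The probe that gives the gene's value, A_04_P004970, belongs to the smaller response. It stood at -2.25, -2.28 and -1.26 in controls, at -0.90, -0.84 and -0.57 on day 3, at -1.91, -1.72 and -1.07 on day 5 and at -1.81, -1.30 and -1.12 on day 7, above background on all 12 arrays. Its day 3 arrays were higher than every array of the other 3 groups, while day 5 and day 7 overlapped with controls. The day 3 change was 1.16 (SE 0.31, limma adjusted p = 0.0456), with means of -0.77 ± 0.18 on day 3 and -1.93 ± 0.58 in controls (SD, n = 3 each). That call was lost in 9 of 12 fits that left out 1 array, and it held without day 5 replicate 3, day 7 replicate 1 or control replicate 3, with adjusted p-values between 0.0110 and 0.160 over the 12 fits.

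Probe A_04_P004966 belongs to the larger response and was not above background on any control array. It stood at -4.38, -4.52 and -4.46 in controls, at -0.88, -0.96 and -1.23 on day 3, at -2.67, -3.36 and -2.87 on day 5 and at -3.53, -3.65 and -3.15 on day 7. None of the 4 groups overlapped except day 5 with day 7, and the controls differed by little among themselves. It rose by 3.43 on day 3 (SE 0.20, limma adjusted p = 2.34e-05), by 1.49 on day 5 (adjusted p = 0.00344) and by 1.01 on day 7 (adjusted p = 0.0261). Since the control values are not measured levels, the folds are bounds, at least 5.79-, 1.51- and 1.08-fold higher on these days. Of all probes, 1.78% were called higher on day 5 and 1.86% on day 7. The probe passed the filter on dim probes through day 3 and day 5 and not through controls. Its calls against control are thus conditioned in part on the rise and are not set against these shares. The day 3 and day 5 calls held in all 12 fits that left out 1 array. The day 7 call was lost without control replicate 1, control replicate 2, day 7 replicate 1 or day 7 replicate 3, with adjusted p-values of up to 0.0987. With normexp neither later call remained, with changes of 0.54 on day 5 (0.188) and 0.19 on day 7 (0.815), and the day 7 call was also lost without the filter on dim probes and with only the 2 groups compared.

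The same probe fell after day 3. Its level was lower on day 5 than on day 3 by a change of -1.94 (limma adjusted p = 0.0103), and lower on day 7 than on day 3 by a change of -2.42 (adjusted p = 0.00207). It was 1 of the 3 probes of the whole array (0.0113%) called between day 5 and day 3. The day 7 call against day 3 held in all 12 fits that left out 1 array. The day 5 call was lost without day 3 replicate 2 or day 5 replicate 3 (adjusted p up to 0.0708), and with only the 2 groups compared. With normexp background correction, which adds an offset of 50 units before the log and so shrinks changes of dim probes, the 2 changes were -0.33 (adjusted p = 0.252) and -0.68 (0.314). Probe A_04_P004967, which overlaps it by 59 bases, was called on day 3 (3.48, adjusted p = 7.74e-05), on day 5 (1.50, adjusted p = 0.0198) and between day 7 and day 3 (-2.41, adjusted p = 0.0185). Its control arrays were not above background, so its day 5 fold is a bound, at least 1.45-fold higher. Of all probes, 0.144% were called between day 7 and day 3. The day 5 call of A_04_P004967 was lost without control replicate 2 or 3 or day 5 replicate 1 or 3 (adjusted p up to 0.0805). It was also lost with normexp (0.57, adjusted p = 0.164), with array weights and with only the 2 groups compared. The call of A_04_P004967 between day 7 and day 3 was lost without day 3 replicate 2 or 3 or any 1 of the day 7 arrays (up to 0.0971). It was also lost with the slide as a block (0.0820), with normexp (-0.75, 0.181) and without the filter on dim probes.

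The probes A_04_P004968 and A_04_P004967, printed above, adjoin each other and share 10 bases, yet they differ in size of response. A_04_P004968 stood at -0.74, -0.82 and -1.04 on day 3, against -2.31, -2.49 and -1.96 in controls, a change of 1.38 (SE 0.21, limma adjusted p = 0.00327). A_04_P004967 stood at -1.01, -0.85 and -1.25 on day 3, against -4.08, -4.72 and -4.74 in controls, where no array was above background. The cause of the difference between the 2 groups of probes was not tested. With the mean of all 7 probes in place of the chosen one, the day 3 change of CXCL8 was 2.77 (adjusted p = 0.000117).

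**Figure D2:**
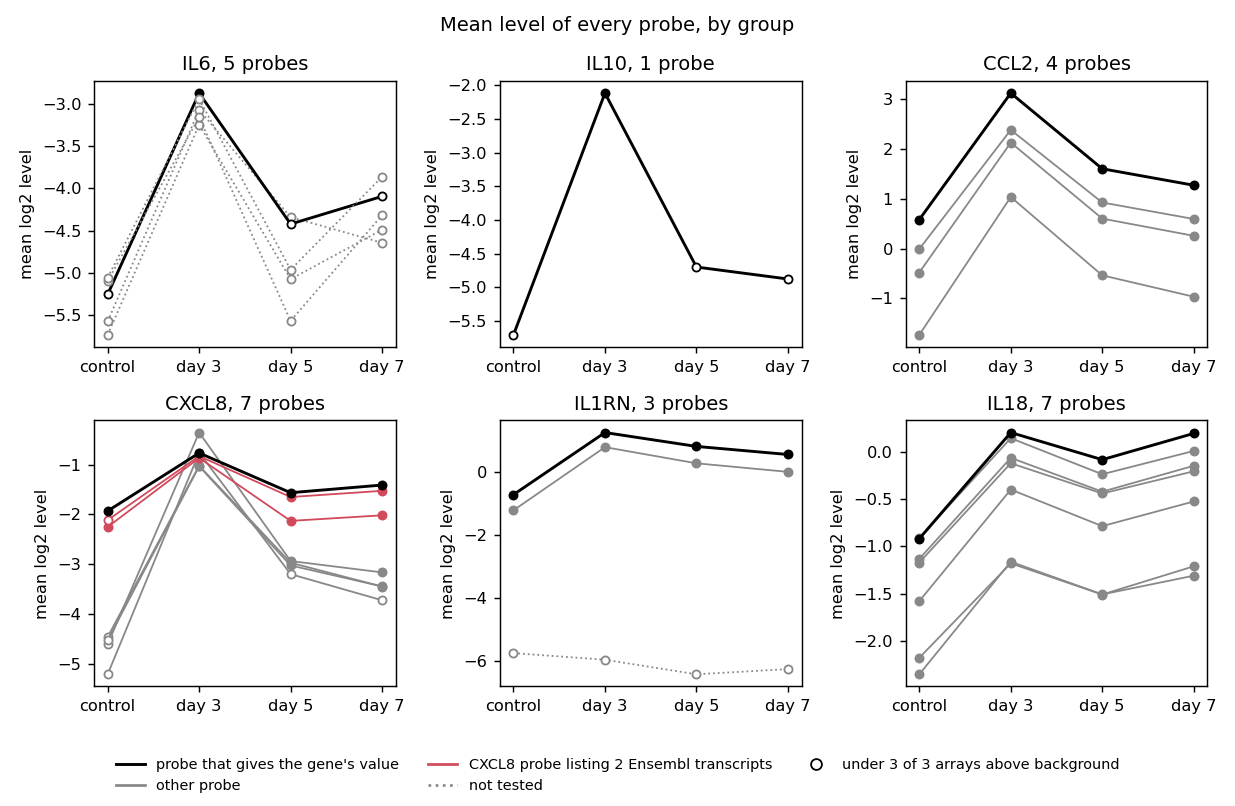
Mean log2 level (vertical axis, n = 3 arrays per point) of each of the 27 probes by group (horizontal axis). Black lines are the probes that give a gene's value, red lines the other CXCL8 probes that list 2 Ensembl transcripts, dotted lines probes that were not tested, and open points groups with fewer than 3 of 3 arrays above background. Between control and day 3 the lines of 4 CXCL8 probes climb more steeply than those of the other 3, with open control points on all 4, while the probes of CCL2 and of IL18 run in parallel.

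The receptors of CXCL8 did not pass the test on any day. CXCR1 had a change of 0.05 on day 3 (limma adjusted p = 0.911; -0.04 to 0.21 with 1 array left out) and CXCR2 one of -0.25 (adjusted p = 0.389). Of 6 neutrophil markers tested, 0 were called on day 3 by limma, and their summed signal, as a multiple of the 75th percentile, was 3.21 to 4.85 on day 3, against 3.70 to 4.15 in controls. The neutrophil granule marker MPO had a change of -0.10 on day 3 (adjusted p = 0.894; 0.05 without control replicate 3). The changes of the 6 markers ranged from -0.25 to 1.32 on day 3, with a median of -0.17.

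CCL2 rose by 2.54 on day 3 (SE 0.46, limma adjusted p = 0.00803), a fitted 5.80-fold. Its probe stood at -0.31, 0.65 and 1.40 in controls, at 3.96, 2.40 and 2.99 on day 3, at 1.71, 1.33 and 1.75 on day 5 and at 1.19, 1.81 and 0.81 on day 7. The day 3 arrays were above every other array, and the controls spread over more than the day 5 arrays did. The means were 3.12 ± 0.79 on day 3 and 0.58 ± 0.85 in controls (SD, n = 3 each). Within the 3 slides the day 3 change was 4.27, 1.75 and 1.59, so the first slide, which held the highest day 3 and the lowest control value, gave the greatest difference.

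All 4 CCL2 probes were called higher on day 3 (changes of 2.39 to 2.76), as were 4.71% of all probes. They form 1 group of overlapping probes, so they are not separate evidence. The chosen probe was called in all 12 fits that left out 1 array. On day 5 the change was 1.02 (limma adjusted p = 0.335) and on day 7 it was 0.69 (adjusted p = 0.459), and both days overlapped with controls. The CCL2 receptor CCR2 had 1 probe on the array, which was not tested. CX3CR1, the fractalkine receptor of monocytes and microglia, moved the other way: its levels were -3.14, -4.12 and -4.11 on day 3, against -1.46, -1.83 and -1.62 in controls. The last 2 of these day 3 spots were not above background. CX3CR1 fell by 2.15 on day 3 (SE 0.35, limma adjusted p = 0.0049; -0.71 with normexp, also called) and by 1.62 on day 7 (adjusted p = 0.0384). Its day 3 call held in all 12 fits that left out 1 array. Its day 7 call was lost in 6 (control replicates 1 and 2, day 5 replicate 2 and each day 7 array; adjusted p up to 0.140) and with the slide as a block (0.0567). The day 7 call was also lost with normexp (-0.41, adjusted p = 0.298) and without the filter on dim probes. CX3CR1 was the single gene called on day 3 among 10 tested chemokines and chemokine receptors other than the members. Of all genes, 2.04% were called lower on day 3.

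IL18 was above background on all 12 arrays with all 7 probes and was called on day 3 alone. Its chosen probe stood at -1.47, -0.95 and -0.34 in controls, at -0.14, 0.26 and 0.49 on day 3, at 0.25, -0.25 and -0.25 on day 5 and at 0.21, -0.18 and 0.55 on day 7. Every array after the hemorrhage was above every control array, though by little: the lowest day 5 array stood at -0.25 and the highest control at -0.34. Such a separation held for 13.1% of probes on day 3, 10.3% on day 5 and 12.3% on day 7. The change was 1.12 on day 3 (SE 0.30, limma adjusted p = 0.0456), 0.83 on day 5 (adjusted p = 0.203) and 1.11 on day 7 (adjusted p = 0.0776). The changes of day 3 and day 7 were nearly equal in size, with a difference of -0.01 between the days and a 95% confidence interval of -0.66 to 0.64.

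All 7 IL18 probes were called higher on day 3, as were 4.71% of all probes. Their changes were at most 1.19 and their limma adjusted p-values 0.0340 to 0.0473, close to the threshold. They form 1 group of overlapping probes, so they are not separate evidence. The chosen probe's day 3 call was lost in 10 of 12 fits that left out 1 array and held without day 3 replicate 1 or control replicate 3. Without control replicate 3, which had the highest IL18 level among controls, the day 7 change was 1.40 and was called (adjusted p = 0.0226). The 2 pairs of probes with the same sequence differed by a median of 0.05 and 0.12 over the 12 arrays, which shows the spread between spots of 1 sequence.

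IL18BP, the secreted protein that binds IL18 and keeps it from its receptor, rose with it on day 3. Its levels were 0.32, 0.90 and 1.11 on day 3, against -0.90, -0.82 and -1.31 in controls, with no overlap. The change was 1.79 (SE 0.26, limma adjusted p = 0.00222) on day 3, 1.03 on day 5 (adjusted p = 0.0727) and 1.01 on day 7 (adjusted p = 0.0667, called without day 5 replicate 3). The receptor chain IL18R1 had 3 probes on the array and none was tested. CASP1, the protease that cleaves the IL18 precursor, stood at -0.32, -0.94 and -0.81 on day 3, against -0.86, 3.63 and -0.75 in controls. Its change of -1.37 (adjusted p = 0.443) turned to 0.11 without control replicate 2; it was named after its values were seen.

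IL1RN was called higher on all 3 days. Its chosen probe stood at -0.76, -0.85 and -0.57 in controls, at 1.61, 1.06 and 1.06 on day 3, at 0.34, 0.55 and 1.52 on day 5 and at 0.62, 0.69 and 0.34 on day 7. All 9 arrays after the hemorrhage were above 0 and all 3 controls below it. IL1RN rose by 1.97 on day 3 (SE 0.28, limma adjusted p = 0.00196), by 1.53 on day 5 (adjusted p = 0.0176) and by 1.27 on day 7 (adjusted p = 0.0391). These are 3.92-, 2.89- and 2.42-fold. The differences between the days did not pass the test, and day 7 against day 3 had a change of -0.70 (adjusted p = 0.389).

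The day 3 call of IL1RN held in all 12 fits that left out 1 array. The day 5 call was lost without control replicate 1 (adjusted p = 0.0548) or control replicate 2 (adjusted p = 0.0581). The day 7 call was lost in 8 of the 12 fits and held without control replicate 3, day 3 replicate 1, day 5 replicate 1 or day 5 replicate 3, with adjusted p-values of 0.00735 to 0.131 over the 12. With the slide as a block, the day 7 adjusted p was 0.0502. The second probe from the same stretch, A_04_P003386, was called on all 3 days, on day 7 not in 5 of 12 fits that left out 1 array (control replicates 1 and 2 and each day 7 array; adjusted p up to 0.117). The third, A_04_P093907, shares no bases with them and was above background on 0 of the 12 arrays, so the rise rests on overlapping probes from 1 place.

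The agonist and receptors of the same system did not pass the test. IL1B, the cytokine that IL1RN opposes, stood at 0.81, -0.76 and -0.24 on day 3, against -0.84, 1.17 and 0.90 in controls, a change of -0.47 (limma adjusted p = 0.741). Its change on day 7 was -2.16 (adjusted p = 0.116). The signalling receptor IL1R1 had a change of -0.15 on day 3 (adjusted p = 0.724), and the decoy receptor IL1R2 one of -1.51 (adjusted p = 0.144), with no overlap between its day 3 and control arrays. IL1RL1, the receptor of IL33, had changes of 1.24 on day 3 (adjusted p = 0.166) and 1.80 on day 7 (adjusted p = 0.0837), and both were called without control replicate 3. Of 11 tested genes of the IL-1 and IL-18 system other than the members, IL18BP alone was called on day 3. On day 5 and day 7, 0 were called. Of all genes, 4.84% were called higher on day 3.

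IL10 was above background on all 3 day 3 arrays and on 0 arrays of the other groups. Its single probe stood at -6.14, -4.83 and -6.14 in controls, at -2.90, -2.33 and -1.12 on day 3, at -4.95, -4.87 and -4.27 on day 5 and at -4.90, -5.51 and -4.22 on day 7. The day 3 arrays were above all 9 others, and the other 3 groups overlapped. IL10 rose by 3.59 on day 3 (SE 0.49, limma adjusted p = 0.00163), with means of -2.12 ± 0.91 on day 3 and -5.70 ± 0.76 in controls (SD, n = 3 each), again from a probe tested through its day 3 arrays alone. As a bound, it was at least 2.72-fold higher. The floor was highest on control replicate 2, whose lowest signal above background was 0.158 of its 75th percentile, where the other arrays had 0.0528 to 0.0758.

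The day 3 call of IL10 held in all 12 fits that left out 1 array. Day 5 and day 7 changes against control were 1.01 (limma adjusted p = 0.389) and 0.83 (adjusted p = 0.41) and compare spots that were all below the background criterion. Against day 3, the day 7 change was -2.76 (SE 0.49, adjusted p = 0.063), lower on all 3 slides. It passed the test without control replicate 2 (adjusted p = 0.0400). The receptor chains IL10RA and IL10RB had day 3 changes of -0.49 (adjusted p = 0.501) and -0.18 (adjusted p = 0.674). Without control replicate 2 the first turned to 0.05, and without day 3 replicate 3 the second turned to 0.03. In all, 0 of 3 tested genes of the IL-10 family and its receptors were called by limma on any day. The third of them, NFIL3, a transcription factor that IL10 is known to induce in macrophages, had a change of 0.10 on day 3 (adjusted p = 0.904), which ranged between -0.14 and 0.49 when 1 array was left out.

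**Figure D3:**
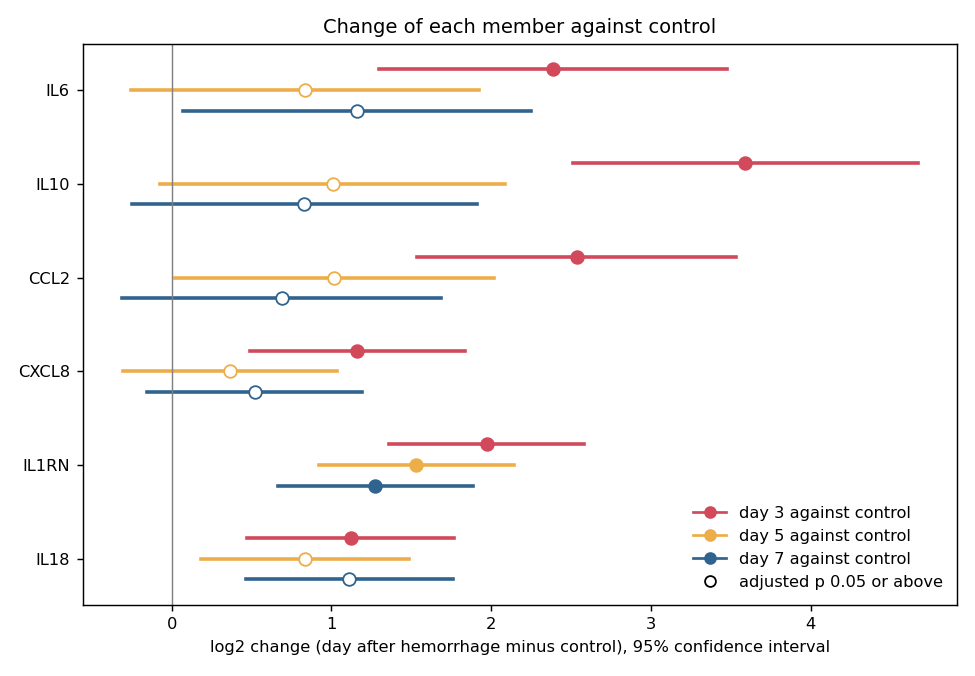
Log2 change against control (horizontal axis) with its 95% confidence interval for each gene (vertical axis) on day 3, day 5 and day 7. Filled points have an adjusted p below 0.05. All 6 day 3 points and the 3 IL1RN points are filled, and the day 7 interval of IL18 nearly matches its day 3 interval without passing the adjusted threshold.

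The days were also compared with each other. On day 5 against day 3, the arrays of CXCL8 and CCL2 were lower without overlap, as were 6.34% of all probes, with changes between -0.80 and -1.52 and an unadjusted p below 0.05. On day 7 against day 3, CXCL8, CCL2 and IL1RN were lower without overlap, as were 10.2% of all probes, and CCL2 and IL1RN had an unadjusted p below 0.05. IL6 and IL10 also had one on both days, but their filter had required them to be high on day 3, so they are not set against those shares. After adjustment limma called 0 of 6 on either day, where 0% of all genes were called on day 5 and 0.109% on day 7. IL1RN and IL18 differed from day 3 by -0.44 and -0.29 on day 5. Between day 7 and day 5, limma called 0 of 6 genes and 0% of probes, and 0 genes had an unadjusted p below 0.05.

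A single test for any difference between a day and control was past the threshold for IL10 (F test, limma adjusted p = 0.00832), IL1RN (0.0106) and CCL2 (0.0412). It was not for IL6 (adjusted p = 0.0857), IL18 (0.127) or CXCL8 (0.184). With the slide as a block, CXCL8 passed (0.0340) and CCL2 did not (0.0812). For IL10 the test shares the limit that its probe was tested through day 3 alone. On the slides, CXCL8, CCL2, IL18 and IL1RN were higher on day 3 than in controls on 3 of 3 slides. So were IL6 and IL10, for which the filter had required high day 3 arrays. The share of all probes that were higher on every slide was not counted. Within the 3 slides the day 3 change was 2.94, 1.15 and 3.07 for IL6, 1.35, 1.44 and 0.70 for CXCL8, 1.33, 1.21 and 0.82 for IL18, 2.37, 1.91 and 1.64 for IL1RN, and 3.24, 2.50 and 5.03 for IL10. With the slide as a block, all 6 day 3 calls held, with limma adjusted p-values between 0.00295 and 0.0394.

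The background correction moved several of these calls. With normexp, the day 3 changes were 0.41 for IL6 (limma adjusted p = 0.433), 0.47 for CXCL8 (0.200), 0.69 for IL10 (0.112) and 0.75 for IL18 (0.0579), none of them called, while CCL2 and IL1RN stayed called on day 3. The day 7 change of IL1RN was then 0.88 and not called (0.0788). The 5 CXCL8 probes other than the chosen one that were called on day 3 were called under normexp too. Without the filter on dim probes, more probes share the adjustment, and the day 3 calls of CXCL8 and IL18 (adjusted p = 0.101 each) and the day 7 call of IL1RN (0.0955) were lost. In fits of only the 2 groups compared, the day 3 calls of IL6 (0.0689), CXCL8 (0.0898) and IL18 (0.114) and the day 5 call of IL1RN (0.0960) were lost.

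Among the other genes of these pathways, 149 were listed and 57 tested. On day 3 limma called 7 higher and 2 lower, 15.8% of those tested, with a median change of 0.17. Of all genes, 4.84% were called higher and 2.04% lower on that day. CD14, a co-receptor for lipopolysaccharide on macrophages, rose by 1.44 on day 3, 1.81 on day 5 and 1.55 on day 7 (adjusted p = 0.00291, 0.00196 and 0.00473). TLR4, the receptor it serves, rose by 1.15, 1.46 and 1.39 on the same days (adjusted p = 0.00884, 0.00469 and 0.00697). All 6 of these calls held in the 12 fits that left out 1 array, and the day 3 call of TLR4 was lost with only the 2 groups compared.

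IL16, a cytokine known to attract CD4+ cells, rose by 0.94 on day 3 (limma adjusted p = 0.041) and by 1.1 on day 7 (adjusted p = 0.0391). Those 2 calls of IL16 were lost in 9 and 8 of 12 fits that left out 1 array, where limma adjusted p-values reached 0.111 and 0.133. Both held without control replicate 1, day 5 replicate 1 or day 5 replicate 3, the day 7 call also without control replicate 3. Both held with normexp too. They were lost with quantile normalization, with the authors' values, without the filter on dim probes and with only the 2 groups compared. IL13RA2, the decoy receptor of IL13, was not above background on day 3, where it stood at -4.14, -4.06 and -5.93, against -1.60, -2.45 and -1.11 in controls. It fell by 2.99 (SE 0.51, adjusted p = 0.0061), at least 4.36-fold lower on day 3. With normexp the change was -0.75 and not called (adjusted p = 0.0687). IL13RA2 and CX3CR1 were the 2 genes of these lists called lower on day 3, as were 2.04% of all genes; on day 7 that share was 0.585%.

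**Figure D4:**
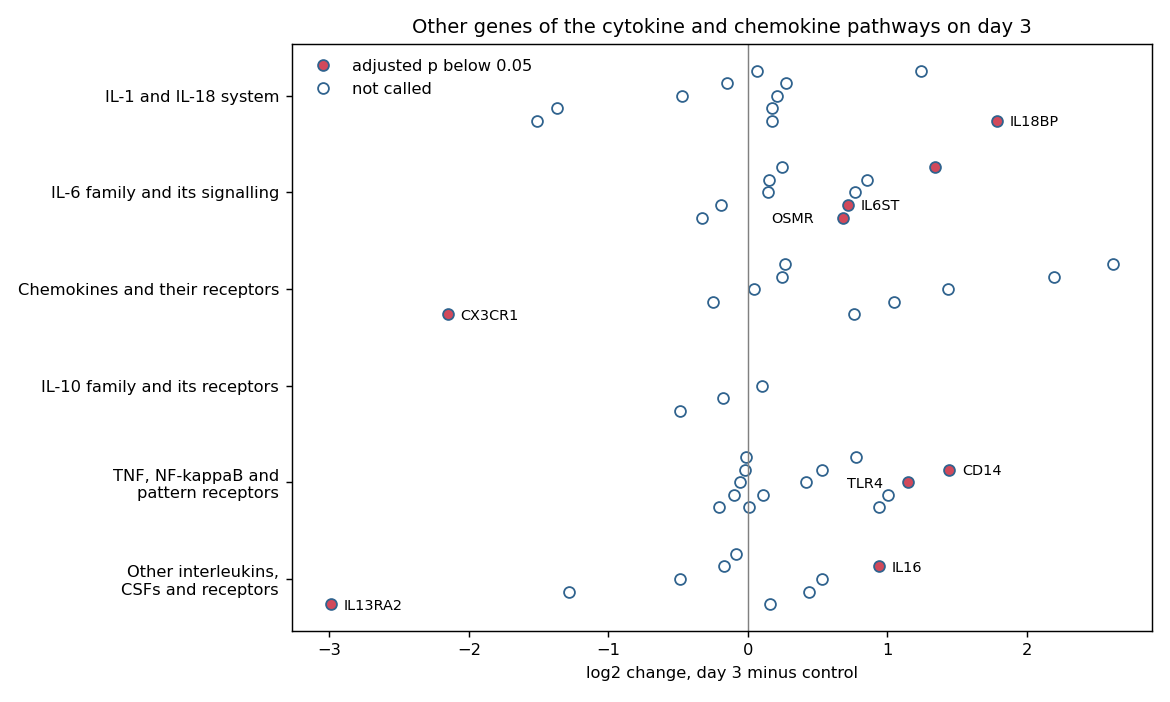
Log2 change on day 3 (horizontal axis, day 3 minus control) of the 57 tested genes of 6 pathway lists (vertical axis, spread within a list for legibility). Filled points have an adjusted p below 0.05, and those described in the text are named: 7 lie to the right of 0 and 2 to the left.

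Some markers of blood cells were also higher after the hemorrhage. Of 6 macrophage markers tested, 4 were called higher on each of the 3 days and the other 2 were not called. The shares of all genes called higher were 4.84%, 1.92% and 1.96%. The lowest change among the 6 markers was -0.09 (day 3), -0.13 (day 5) and 0.19 (day 7). Their medians, in the same order, were 1.41, 1.82 and 1.77. CD68 rose by 2.17 on day 3 (limma adjusted p = 0.000126). The summed signal of the macrophage list, in multiples of the 75th percentile, lay between 6.82 and 10.2 in controls. It lay between 20.7 and 25.3 on day 3, between 24.0 and 33.7 on day 5 and between 22 and 28.3 on day 7. On no day did it overlap with controls. Of 6 lymphocyte markers, CD79B and PTPRC were called on day 3, the second of them not without control replicate 2, day 3 replicate 1 or day 3 replicate 3 (adjusted p up to 0.114) and neither of them with normexp (0.430 and 0.0688), and their list summed to 2.36 to 3.34 on day 3, against 1.74 to 1.91 in controls. The T cell markers CD3E, CD2 and CD4 and the macrophage marker MARCO were on the array and not above background often enough to be tested. The smooth muscle list summed to 614 to 740 on day 3, against 881 to 1022 in controls. The part of cell content in the changes of the 6 genes was not tested.

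**Figure D5:**
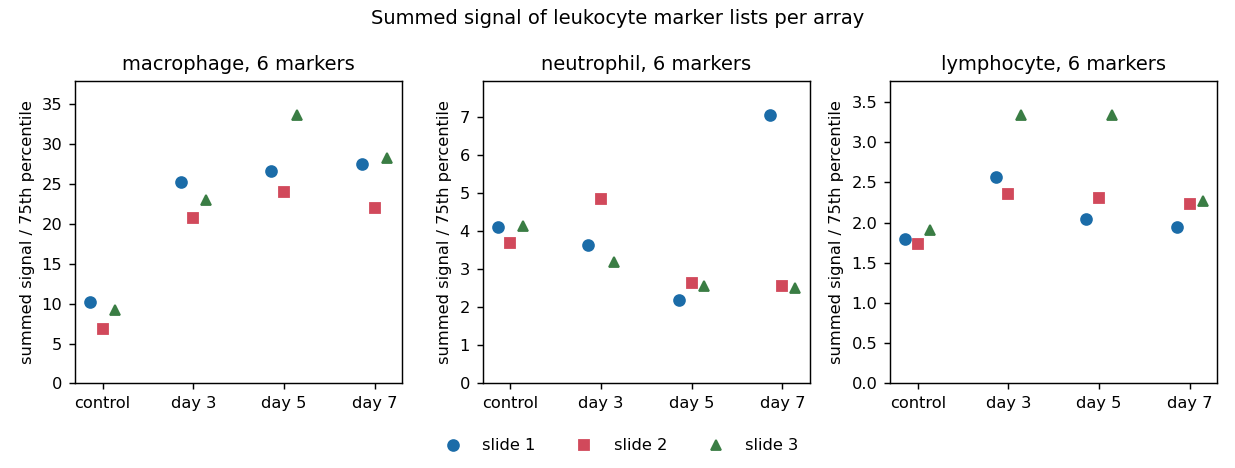
Summed signal of marker lists (vertical axis, multiples of the array's 75th percentile, from 0) on the 12 arrays by group (horizontal axis), with symbols for the slides. The macrophage list lies at 6.82 to 10.2 in controls and above 20 on every array after the hemorrhage, while the neutrophil list on day 3 spans the range of the controls.

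Genes whose levels ran most like those of each member were ranked by Pearson's r over the 12 arrays and 7319 genes, as a description of arrays that share slides and groups. CCL2 ran most like FEZ1 (r = 0.97), HMGB3 (0.93) and S100A11 (0.91). IL18 ran most like EPHX4 (0.97), RINT1 (0.95) and SYAP1 (0.94). For IL1RN the nearest were CDK1, IFI35 and PLAU (0.93 each), and for IL10 they were SEC61A1, GGT5 (0.94 each) and CDC20 (0.93). For CXCL8 they were MRPS25 (0.94), NICN1 (0.93) and CCNB1 (0.92), and for IL6 LOC100338916, MYL3 (0.94 each) and PIGU (0.93). Among the members, which were not picked for likeness, r lay between 0.54 (CCL2 with IL18) and 0.84 (IL6 with IL10), the last pair being below the background criterion on 9 of 12 arrays.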

How the data were processed

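The authors deposited scanner output of 12 arrays, written by version 9.5.1.1 of Agilent Feature Extraction according to the submitters' processing notes. The intensity used is the processed signal, which per the file headers had its background subtracted and was detrended within the array. Flags of 0 or 1 on each deposited spot, units of the kind other, mark outliers and spots well above background. The authors' deposited values, an alternative here, are intensity on a linear scale, with a median of 27.0 on every array.

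For this work, control spots were left out, outlier spots set to missing, each array's 75th percentile subtracted from its log2 processed signals, and spots of a probe averaged. Probes with all 3 spots of some group well above background were tested (26434 of 43623) in 1 limma fit of 12 arrays without a block (limma 3.58.1, R 4.3.3, version 1.17.8 of data.table), two-sided, with Benjamini-Hochberg adjustment over all tested probes. Names came from the array's annotation and RefSeq gene names (assembly mOryCun1.1): 22343 probes had 1 gene, 125 several and 21155 none. In simulated data of 26434 probes, the day 3 contrast recovered 41% of changes of 2-fold and 86% of those of 4-fold. Samples with the same replicate number, which share a slide, deviated from their group means with r of -0.15 to 0.39.

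The members and gene lists were chosen with earlier results of these data known. Other genes were named by a rule: from each pathway list, the measured direct receptors and decoys of the members and up to 5 more called on any day by size of change, or, with none called, the 2 with the smallest p. Some genes that the rule names are not reported here. Marker lists covered macrophages, neutrophils, lymphocytes, endothelium, smooth muscle, fibroblasts and leptomeninges, neural and glial cells, and erythroid cells. Alternatives were background correction (normexp, offset 50), quantile normalization, the authors' table, the filter on dim probes, outlier spots kept, the replicate block, array weights, the mean of a gene's probes, each other probe, only the 2 groups compared, and leaving out each array.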

Additional observations from a re-analysis of the deposited data

Results flagged for a closer look

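For CXCL8, 2 probes differed between days after the hemorrhage by the test of the difference itself. Probe A_04_P004966 had a change of -1.94 on day 5 against day 3 (limma adjusted p = 0.0103) and of -2.42 on day 7 against day 3 (adjusted p = 0.00207), lower on 3 of 3 slides in both cases. Probe A_04_P004967, which overlaps it by 59 bases and so is no separate evidence, had a change of -2.41 on day 7 against day 3 (adjusted p = 0.0185). The probe that gives the gene's value, A_04_P004970, had a change of -0.64 on day 7 against day 3 (adjusted p = 0.466). Of the 3 changes, 1 held in all 12 fits that left out 1 array (A_04_P004966, day 7), and the other 2 were lost in 2 and 5 of them. With normexp all 3 calls were lost, with limma adjusted p-values of 0.252 and 0.314 for A_04_P004966 and 0.181 for A_04_P004967.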

How the results depend on the processing

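Over the 6 genes, 6 comparisons and the alternatives other than single probes, 716 of 780 values kept direction and side of the threshold, 44 lost a call, 8 gained one and 12 changed sign. As reported, 1754 probes were called on day 3, 533 on day 5 and 597 on day 7 against control, 3 on day 5 and 38 on day 7 against day 3, and 0 on day 7 against day 5. Normexp called 1007, 221 and 253 probes against control and 56 on day 5 against day 3, with 2 of the 6 genes on day 3 and 0 on day 7; it turned IL6 to 0.15 on day 5 against day 3, and IL6 to -0.24 and CXCL8 to -0.084 on day 7 against day 5. Without the filter, 974, 345 and 305 probes were called against control and 3 on day 7 against day 3, with 0 genes on day 7. With only the 2 groups compared, these were 897, 210 and 292 probes, and 0 and 12 against day 3, with 3 genes on day 3 and 0 on day 5. Array weights called 1145 probes on day 5, 1586 on day 7, and 255 and 227 against day 3, with 2 genes on day 7 and 1 on each day against day 3, and turned IL1RN to 0.039 on day 7 against day 5. The stricter filter called 311 probes on day 5 and 0 on day 5 against day 3. On day 7 against day 3 the authors' values called 20 probes, quantile normalization 1 gene (IL10, adjusted p = 0.0493) and the mean of a gene's probes 2; that mean turned CXCL8 to -0.18 on day 7 against day 5, and its 4 probes of larger change gave -0.23, -0.52, -0.48 and -0.42. The cause was not tested.

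With the replicate block, 954 probes were called on day 7 and 2 on day 7 against day 3, with 0 genes on day 7. Of 18 pairs of samples with a shared number, 10 correlated above 0.1 in their deviations (median 0.11). Of 36 pairs with different numbers, 2 did (median -0.04). The main fit did not take the numbers as pairs. That 8 of the 18 stayed below 0.1 does not show that the slides had no effect. Results that change with the block thus depend on its being left out. The adjusted p for any difference from control became 0.247 for IL10 with normexp, 0.0992 for CCL2 without the filter, 0.0406 for IL18 with array weights, and for IL6 0.0418 with the authors' values and 0.0403 with quantile normalization. With the block it was 0.0340 for CXCL8 and 0.0812 for CCL2. No scaling moved the median of all probes by more than 0.1, and on day 7 against day 3 the share of calls that were higher was 15.4% with quantile normalization and 15.0% with the authors' values, against 28.9% as reported.

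Leaving out each array gave between 789 and 1943 probes on day 3, between 280 and 685 on day 5, between 229 and 1692 on day 7, between 0 and 5 on day 5 against day 3, between 2 and 70 on day 7 against day 3, and 0 in every fit on day 7 against day 5. The day 3 count fell below its reported value by over 1.5 times without control replicate 1 (979), day 3 replicate 2 (1110) or day 3 replicate 3 (789), and the day 7 count was 1692 without control replicate 3. Called genes were 3 to 6 (day 3), 0 to 1 (day 5), 0 to 2 (day 7) and 0 to 1 (day 7 against day 3). The adjusted p for any difference was 0.0734 to 0.178 for IL6, 0.0533 to 0.433 for CXCL8, 0.0241 to 0.114 for CCL2, 0.0521 to 0.371 for IL18, 0.00186 to 0.0529 for IL1RN and 0.00663 to 0.0287 for IL10. Signs turned on day 7 against day 3 for IL18 (-0.19 to 0.18; 0.02 without day 3 replicate 2, 0.13 without day 3 replicate 3). On day 7 against day 5 they turned for CXCL8 (-0.018 to 0.40), IL10 (-0.51 to 0.14; 0.04 without day 5 replicate 3) and IL1RN (-0.49 to 0.10). Of 23 calls against control of the other genes checked this way, 14 held with each array left out and 11 under all other alternatives; of 23 calls of the members' other probes, 12 and 7 did. With 3 arrays a group and a signal near background for IL6 and IL10, smaller changes of these genes were not measurable.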

Other observations

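The remaining marker lists were summed per array in the same way. Fibroblast and leptomeningeal markers summed to 894 to 985 times the 75th percentile on day 3, against 1237 to 2265 in controls. Of these 9 genes, 3 were called higher and 3 lower, where the shares of all genes were 4.84% and 2.04%. The median log2 change of the 9 was 0.50, so the sum, in which the brightest genes weigh most, went the other way. Endothelial markers summed to 93.9 to 102 on day 3, against 77.7 to 92.0 in controls, with 0 of 6 called by limma. Their median log2 change was -0.25 (range -0.79 to 0.41), again opposite to the sum. The 2 erythroid markers summed to between 26.4 and 49.4 in controls, to between 19.0 and 93.7 on day 3, to between 46.4 and 88.9 on day 5 and to between 71.9 and 113 on day 7. Limma called 0 of these 2. The 2 neural and glial markers tested summed to 0.710 to 0.854 on day 3, against 1.09 to 1.12 in controls, with 0 called.

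MMP9, a matrix protease stored in neutrophil granules, fell by 1.71 on day 5 (limma adjusted p = 0.0249) and by 2.41 on day 7 (adjusted p = 0.00441), and had a change of -0.24 on day 3 (adjusted p = 0.74). Its day 7 call held in all 12 fits that left out 1 array, and its day 5 call was lost without control replicate 2 or 3 or any 1 of the day 5 arrays (adjusted p up to 0.0871). MMP9 was the lowest of 6 neutrophil markers on day 7, where the highest change was 1.40 and the median 0.06. CXCL10, a chemokine induced by interferon, had a change of 2.19 on day 3 (adjusted p = 0.0881), with no overlap between its day 3 and control arrays, and was called without control replicate 2. CCL5, a chemokine for T cells and monocytes, had a change of 2.62 (adjusted p = 0.207), also without overlap. These 3 genes were named after their values were seen.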
